A study of Mus musculus with 15 samples.

Results

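Pkm encodes the muscle-type pyruvate kinase, the enzyme of the last step of glycolysis, in which phosphoenolpyruvate is turned into pyruvate and ATP is made. Its pre-mRNA is spliced to contain 1 of 2 mutually exclusive exons. Inclusion of the M1 exon gives an enzyme that is active without an activator and is typical of muscle and brain, and inclusion of the M2 exon gives an enzyme that fructose bisphosphate activates and that is typical of dividing cells, activated lymphocytes among them. The RNA-binding proteins PTBP1, hnRNPA1 and hnRNPA2B1 are known to repress the M1 exon, SRSF3 to favour the M2 exon, and the transcription factor Myc to raise several of these proteins.

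The gene was chosen by its symbol, as 1 of 55536 annotated genes (Pkm, ENSMUSG00000032294.17, chr9:59656368-59679375 on the plus strand of mm10, GENCODE M21). It holds 11 of the 141862 annotated transcripts and 10 of the 138940 splicing events in the tables. Poly(A) RNA was sequenced from OT-I Tg CD8+ T cells, whose receptor recognises an ovalbumin peptide, after transfer into C57BL/6J mice. Recipients in the Ag group were given the peptide with a control antibody, and recipients in the Ag+Costim group were given it with the agonist antibodies anti-OX40 and anti-41BB. Each group had 5 libraries, labelled day 4, of CD8+ T cells sorted from spleen and lymph nodes, and the study's methods state a somewhat earlier time. The OT-I donors lacked Rag1 or Rag2 in both groups, the labels give no age or sex, and the methods state that mice of both sexes were used. Nothing in the labels says which library came from which animal, so p-values measure the spread between these libraries.

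The M1 exon (exon 9) lies at chr9:59675029-59675195 and the M2 exon (exon 10) at chr9:59675568-59675734, with an intron of 372 bases between them. Both are coding exons of 167 bases, and 103 bases (61.7%) are identical position by position. Their sequences are shown because every M1 and M2 value below rests on telling them apart. Capitals mark the 64 positions at which they differ.
M1 exon: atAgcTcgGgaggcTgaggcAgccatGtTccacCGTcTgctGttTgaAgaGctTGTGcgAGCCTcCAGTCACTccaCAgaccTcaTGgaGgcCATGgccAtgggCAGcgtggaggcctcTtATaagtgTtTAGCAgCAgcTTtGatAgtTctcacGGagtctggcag
M2 exon: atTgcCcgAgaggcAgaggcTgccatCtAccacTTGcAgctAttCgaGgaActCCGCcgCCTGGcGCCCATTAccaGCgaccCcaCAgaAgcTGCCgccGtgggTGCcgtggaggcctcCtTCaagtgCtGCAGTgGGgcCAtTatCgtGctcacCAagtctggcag

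Both coding sequences encode 531 residues, of which 22 differ, the first at residue 389 and the last at residue 433. The intron that follows the M1 exon starts with a match to TAGGG, a motif that hnRNPA1 is known to bind as RNA. Its first 50 bases (chr9:59675196-59675245, plus strand) are shown for this reason, with the match in capitals.
Start of the intron after the M1 exon: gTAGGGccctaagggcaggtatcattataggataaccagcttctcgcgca

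The match begins at base 2 of the intron and is the only one in these 50 bases of the sense strand. Of 16085 introns whose first 50 bases could be read from annotated transcripts that retain them, 791 (4.92%) held the same letters in that window. Neither the M1 exon nor the M2 exon held a match. A match of letters is a description and does not show that a protein was bound there.

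**Figure D1:**
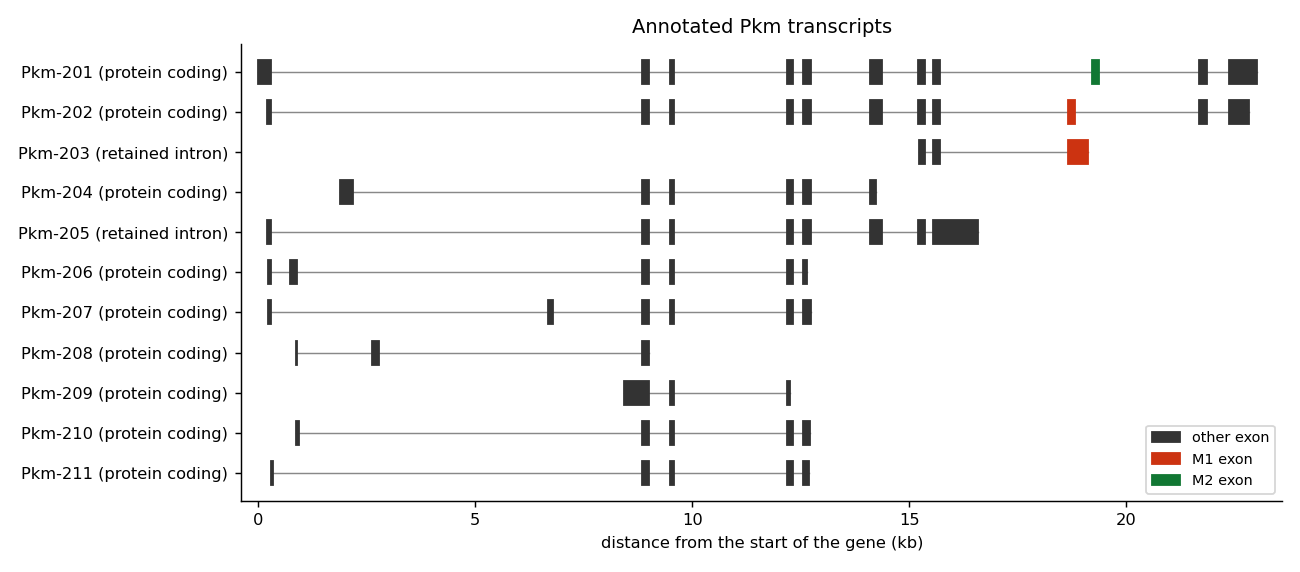
Map of the 11 annotated Pkm transcripts, with distance from the start of the gene in kb on the x axis and 1 transcript per line. Boxes are exons, the M1 exon is red and the M2 exon is green: Pkm-201 holds the M2 exon, Pkm-202 and the short Pkm-203 hold the M1 exon, and 8 transcripts hold neither.

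Pkm-201 is the only annotated transcript with the M2 exon and Pkm-202 the only full-length one with the M1 exon. They share 10 exon positions, but Pkm-201 starts earlier and ends later, giving lengths of 2432 and 2041 bases. Pkm-203 (747 bases, retained intron) also contains the M1 exon. The other 8 transcripts end upstream of both exons, and among them Pkm-205 retains the intron after exon 8.

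The libraries were uneven within the Ag group. Estimated counts on genes totalled 59.6 to 449.4 M (mega) per library in Ag and 332.3 to 639.1 M per library in Ag+Costim. Ag libraries 1, 3 and 4 had a count on 48058, 51778 and 40441 genes, against 21779 and 20714 in Ag libraries 2 and 5 and 28727 to 30340 in the Ag+Costim libraries. The mean level of 20 cell cycle genes was 5.42 and 5.49 log2 CPM in Ag libraries 1 and 4, 7.74 in Ag library 3 and 8.49 and 8.47 in Ag libraries 2 and 5. In Ag+Costim it ranged from 8.42 to 8.68. Summed B cell markers (Ms4a1, Cd79a and Cd79b) stood at 90.7, 245 and 105 CPM in Ag libraries 1, 3 and 4 and at 13.0 to 27.1 CPM in the other 7. All 5 CD8 T cell markers were present in each library, with sums between 2521 and 4965 CPM, while summed muscle genes, from a tissue rich in M1, reached at most 9.42 CPM. Summed erythroid markers, hemoglobin genes among them, stood at 126, 30.5, 1103, 43.7 and 14.7 CPM in the Ag libraries and at 3.8 to 39.8 CPM in the Ag+Costim libraries. Summed myeloid markers went the other way in Ag libraries 1, 2, 4 and 5, with 35.4 to 58.2 CPM against 65.2 to 139 CPM in Ag+Costim. Ag library 3, at 94.8 CPM, lay above Ag+Costim libraries 1, 2 and 4. The highest value was that of Ag+Costim library 3. The Pkm levels and the M1 and Pkm-205 shares are therefore also given without Ag libraries 1, 3 and 4, and the part of these markers in the results was not tested. The group PSI values combine all 5 Ag libraries and could not be given that way.

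**Figure D2:**
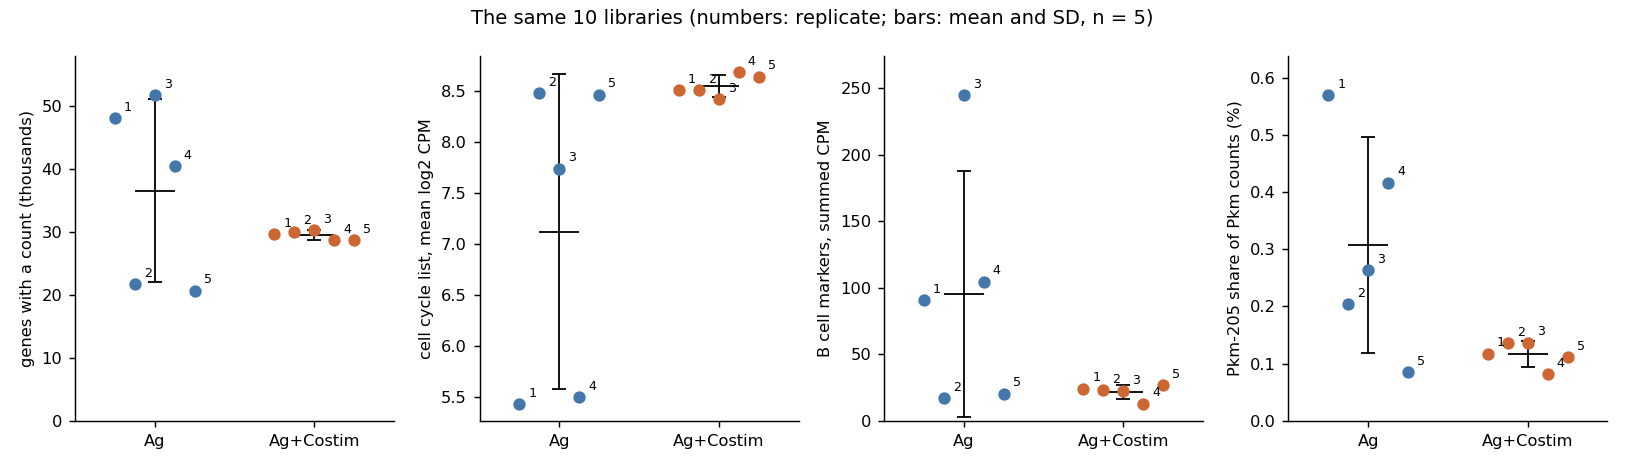
Per library, from left to right: genes with a count (axis in units of 1 k genes), mean log2 CPM of the cell cycle list, summed CPM of the B cell markers, and the share of Pkm counts on the retained-intron transcript Pkm-205 (%), with the replicate number beside each point and bars for the mean and SD (n = 5). Ag libraries 1, 3 and 4 lie above all other libraries in the panels of genes with a count, B cell markers and Pkm-205, and Ag libraries 1 and 4 lie lowest in the cell cycle panel.

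Pkm was abundant in all 10 libraries, and its level varied far more within the Ag group than within the Ag+Costim group. The Ag libraries 1 to 5 had 258226, 601414, 85429, 228605 and 850978 estimated counts on the gene, and the Ag+Costim libraries had 608824, 818455, 1234023, 853051 and 817655. Scaled to a common library size with TMM factors (CPM), these were 572, 1895, 1203, 707 and 2292 CPM in Ag, and 1970.1, 1946, 2116, 2338 and 2205 CPM in Ag+Costim. Ag libraries 2 and 5 lay in or near the Ag+Costim range, while Ag libraries 1, 3 and 4 lay below it, so that the groups overlapped.

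Ag libraries averaged 1334 ± 746 CPM, and Ag+Costim libraries averaged 2115 ± 164 CPM (SD, n = 5 each). The fitted log2 fold change, Ag+Costim over Ag, was 0.67 with a standard error of 0.35, and it did not pass the test (edgeR quasi-likelihood test with Benjamini-Hochberg adjustment, adjusted p = 0.30). An exact two-sided permutation test of log2 CPM over all assignments of the libraries to the groups gave p = 0.079. In the same edgeR fit, 0 of 24262 genes (0%) were called at an adjusted p under 0.05, and 4501 (18.6%) had an unadjusted p under 0.05. With this scaling the median log2 fold change of the 8626 genes at 10 CPM or more was 0.24, and with total counts it was 0.00. Over all genes tested it was -0.32 in the main scaling, so the fold changes of abundant genes such as Pkm are to be read beside 0.24.

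The call on Pkm depended on the method. DESeq2 gave a log2 fold change of 0.58 with an adjusted p of 0.18, while calling 2912 of 21623 genes (13.5%). In limma voom with weights for library quality, Pkm was 1.53 higher in log2 with an adjusted p of 2.89e-05, in a fit that called 12632 of 24262 genes (52.1%). Its weights for Ag libraries 2 and 5 were 0.0986 and 0.0656, against 1.42 and 2.00 for Ag libraries 1 and 4, so the Ag mean there came mainly from libraries with little Pkm. With only Ag libraries 2 and 5 kept, the edgeR log2 fold change of Pkm was 0.049 (adjusted p = 0.77), and 2752 of 25394 genes (10.8%) were called.

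Levels that can be compared between genes and transcripts were computed as TPM, in which counts are divided by annotated transcript length and scaled to the same total in each library. On this scale the gene stood at 527, 1119.9, 928, 603 and 1162 TPM in the Ag libraries and at 1259, 1248, 1337, 1457 and 1416 TPM in the Ag+Costim libraries. All 5 Ag+Costim libraries were above all 5 Ag libraries, as was the case for 4.93% of the genes tested. Pkm ranked 278th, 128th, 121st, 244th and 131st of all genes by TPM in Ag, and from 78th to 99th in Ag+Costim. The means were 868 ± 292 and 1343 ± 92.6 TPM (SD, n = 5), a ratio of 1.55. An exact permutation test gave p = 0.0079, the smallest value that 5 against 5 libraries allow (0.020 after adjustment over 5 exact tests on Pkm). These 5 were the tests of log2 CPM and TPM of the gene, of M1 and M2 TPM, and of the M1 share. Other exact tests on Pkm were not part of this adjustment. With only Ag libraries 2 and 5 kept, both still lay below every Ag+Costim library and the log2 ratio of mean TPM was 0.24. The exact permutation p was then 0.095, as 2 of only 21 assignments gave a difference as large, and the smallest p possible was 0.048.

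**Figure D3:**
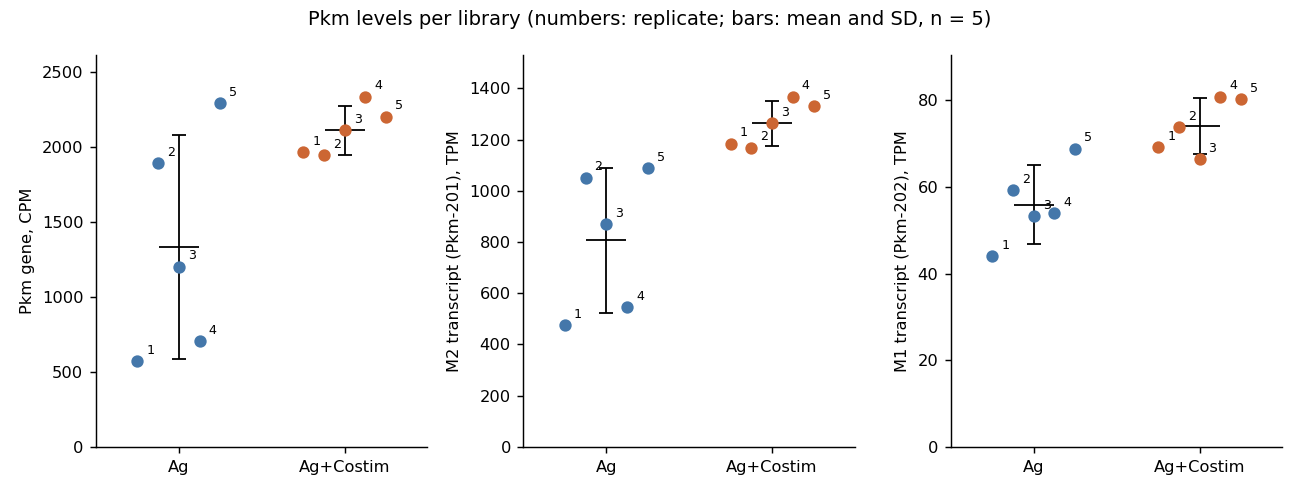
Pkm per library in the 2 groups, as gene CPM (left), TPM of the M2 transcript Pkm-201 (middle) and TPM of the M1 transcript Pkm-202 (right), with the replicate number beside each point and bars for the mean and SD (n = 5). Ag libraries 1 and 4 are lowest for the gene and the M2 transcript, and the M1 axis spans values far below those of the M2 axis.

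The M2 transcript made up most Pkm RNA in both groups. Pkm-201 stood at 477, 1051, 869, 544 and 1089 TPM in the Ag libraries and at 1184, 1168, 1265, 1368 and 1329 TPM in the Ag+Costim libraries. The groups did not overlap on the TPM scale, which held for 2.71% of transcripts in this direction, and the mean in Ag was 806 ± 283 TPM and that in Ag+Costim 1263 ± 87.3 TPM (SD, n = 5, exact permutation p = 0.0079). With CPM and TMM factors they did overlap, as did those of the M1 transcript, and 2.16% of transcripts were without overlap and higher in Ag+Costim. In edgeR over 59949 transcripts, of which 6 (0.01%) were called, the M2 transcript had a log2 fold change of 0.66 with a standard error of 0.39 (adjusted p = 0.51).

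The M1 transcript was present in every library at a low level. Pkm-202 stood at 44.0, 59.2, 53.3, 53.9 and 68.9 TPM in the Ag libraries and at 69.2, 73.9, 66.4, 80.9 and 80.2 TPM in the Ag+Costim libraries. Ag library 5 lay above Ag+Costim library 3, and the other Ag libraries lay below the Ag+Costim range. Ag libraries averaged 55.9 ± 9.11 TPM and Ag+Costim libraries 74.1 ± 6.44 TPM (SD, n = 5), with an exact permutation p of 0.016, or 0.026 adjusted over the 5 tests. The edgeR log2 fold change from counts was 0.47 with a standard error of 0.30 (adjusted p = 0.53).

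The level of M2 over M1 varied among the Ag libraries. Per length, the M2 transcript was 10.8, 17.8, 16.3, 10.1 and 15.8 times as abundant as the M1 transcript in the Ag libraries, and 15.8 to 19.0 times as abundant in the Ag+Costim libraries. When Ag libraries 1, 3 and 4 were left out, the edgeR log2 fold changes turned to -0.045 for M2 (adjusted p = 0.89) and -0.083 for M1 (adjusted p = 0.84), while the log2 ratios of mean TPM were 0.24 (exact permutation p = 0.095) and 0.21 (exact permutation p = 0.14). Under that choice the direction in counts is thus opposite to that in TPM, and neither passed its test, although the M2 TPM values still did not overlap.

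The share of M1 in the pair, taken as counts on Pkm-202 and Pkm-203 over counts on all transcripts with either exon, was a few percent throughout. It was 7.19%, 4.54%, 4.90%, 7.69% and 5.04% in the Ag libraries and 4.68%, 5.04%, 4.22%, 4.73% and 4.82% in the Ag+Costim libraries. Ag libraries 1 and 4 stood above the other 8, whereas Ag libraries 2, 3 and 5 lay within or near the Ag+Costim range. The widest 95% Wilson interval, that of Ag library 3, ran from 4.75% to 5.04%, and such intervals cover counting error only, for estimated counts that are not numbers of reads.

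The Ag libraries had a mean M1 share of 5.87% ± 1.46 and the Ag+Costim libraries one of 4.70% ± 0.300 (SD, n = 5 each). The difference of -1.17 percentage points, with a standard error of 0.66, did not pass the test beside the spread between Ag libraries (exact permutation p = 0.13). It depended on single libraries, since without Ag library 2 it was -1.51 points (exact permutation p = 0.024) and without Ag library 4 it was -0.72 points (exact permutation p = 0.18). With Ag libraries 1, 3 and 4 left out it was -0.091 points (exact permutation p = 0.81).

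**Figure D4:**
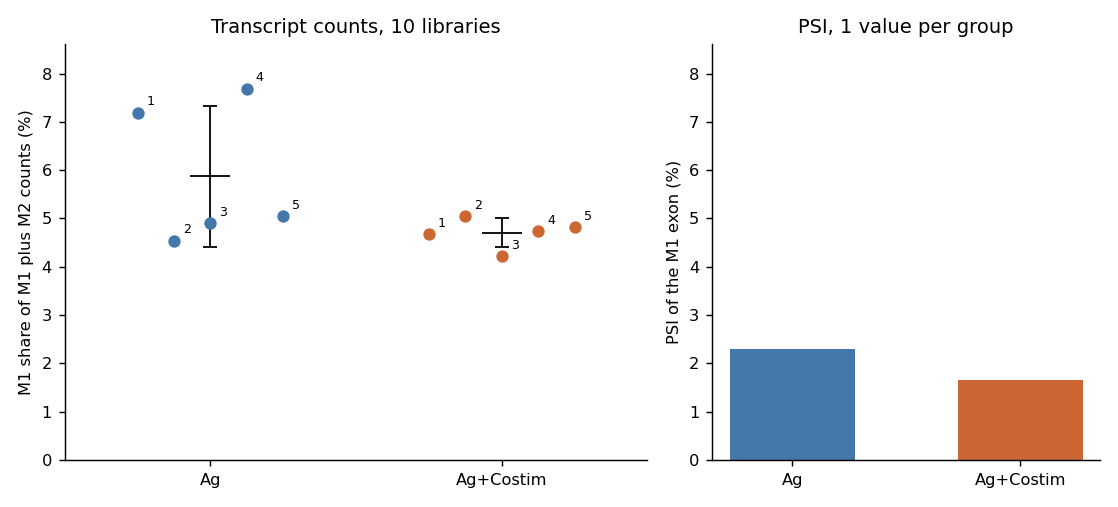
Left, the M1 share of M1 plus M2 transcript counts (%) per library, with the replicate number beside each point and bars for the mean and SD (n = 5). Right, the group PSI of the M1 exon (%), 1 value per group with no replicates, on the same scale: Ag libraries 1 and 4 exceed 7% in the left panel, and both PSI values are below every count-based share.

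Transcript usage, tested across all 10441 genes with 2 or more transcripts past the filter, did not single out Pkm. The gene-level adjusted p rounded to 1 (edgeR diffSpliceDGE, Simes test), and the largest change of a transcript's share was 1.36 percentage points, for Pkm-201. Its mean share in Ag was 93.7%, so a rise could not pass the limit of 10 points used below. For a change in the direction seen, only the adjusted p is informative on Pkm. In all, 31 genes (0.297%) passed both an adjusted p under 0.05 and a change of share over 10 points. Of the members of the glycolysis and splicing regulator lists described below, 0 of 26 and 0 of 10 tested did, and 4 and 0 had an unadjusted p under 0.05 in this edgeR test, beside 652 of the 10441 genes.

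Percent-spliced-in (PSI) values, the share of reads of an event that include an exon, were read directly for 10 core exons of the gene. They exist as 1 value per group, with the libraries combined by the authors, so differences have no replicate check. For the M2 exon the PSI was 98.8% (Ag) and 99.998% (Ag+Costim), and for the M1 exon it was 2.30% (Ag) and 1.66% (Ag+Costim). The differences, Ag+Costim minus Ag, were 1.24 and -0.64 percentage points. Of core exon events, 73.8% had a smaller absolute difference than the M2 exon and 62.6% a smaller one than the M1 exon. Both differences are under 5 points, a size that 5966 of 108413 core exon events (5.5%) exceeded in either direction. With PSI values of 98.8% and 2.30% in Ag, a rise of the M2 exon or a fall of the M1 exon could not reach 5 points. The other 8 core exons, from exon 2 to exon 8 and exon 11, had a PSI of at least 99.99% in both groups.

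Both readouts placed M1 far below M2, but they differed in size. The M1 and M2 exon PSI values sum to 101.1% in Ag and 101.7% in Ag+Costim, so they are not exact complements. As a share of that sum, M1 was 2.28% in Ag and 1.63% in Ag+Costim, below the lowest count-based share of any library, 4.22%. That share is not corrected for length. With counts divided by transcript length, the mean M1 share was 6.94% in Ag and 5.55% in Ag+Costim, farther from the PSI values. The count-based share assigns reads of shared exons to Pkm-201 or Pkm-202 by a model and depends on the annotated ends, in which these transcripts differ. The PSI value uses reads at the exon and its junctions.

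The remaining transcripts held little of the RNA. Together, the 8 transcripts with neither exon took 0.688%, 0.373%, 0.361%, 0.461% and 0.163% of Pkm counts in the Ag libraries and 0.193% to 0.220% in the Ag+Costim libraries. Pkm-205, the transcript that keeps the intron after exon 8 and lacks the exons downstream, took most of this in every library but Ag+Costim library 4. Its share was 0.570%, 0.205%, 0.263%, 0.416% and 0.0846% in the Ag libraries and 0.117%, 0.136%, 0.137%, 0.0818% and 0.112% in the Ag+Costim libraries.

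Ag library 5 lay within the Ag+Costim range of the Pkm-205 share, and the other Ag libraries lay above it. The mean share in Ag was 0.308% ± 0.189 and that in Ag+Costim 0.117% ± 0.0224 (SD, n = 5), with an exact permutation p of 0.040 that became 0.31 when adjusted over the 11 transcripts. Without Ag libraries 1, 3 and 4 the difference was -0.028 points (exact permutation p = 0.48). Leaving out any single Ag+Costim library gave an exact p between 0.087 and 0.10.

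The other retained-intron transcript, Pkm-203, contains the M1 exon and the start of the intron printed above. It had 22, 156, 1, 49 and 1 counts in the Ag libraries and 12 to 33 counts in the Ag+Costim libraries. The 7 remaining transcripts had between 0 and 461 counts per library, and 2 of them, Pkm-209 and Pkm-210, did not pass the filter on low counts. None of the 9 Pkm transcripts tested passed an adjusted p of 0.05 in the transcript fit, in which 0.01% of transcripts did.

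Near copies of the gene bear on how exactly M2 was counted. The annotation holds 14 processed pseudogenes that match the M2 transcript, and 10 of them carry an exon closer to the M2 than to the M1 exon, while 0 carry one closer to M1. Gm6560, 98.4% identical over 1593 bases, had counts equal to 1.09% to 1.31% of those of Pkm in every library, with means of 1.19% in Ag and 1.22% in Ag+Costim. All 14 together had 1.17% to 1.73%. Gm49759, an unspliced entry on the same strand that overlaps both exons, had 0.0494% to 0.477%. Reads on these loci cannot be told apart from Pkm reads with certainty. The percentages show only what was assigned to these loci, and the error of the M2 counts was not estimated.

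Glycolysis genes were described as a list of 30 that holds the glucose transporters, each enzyme of the pathway, the lactate exporters and the entry to mitochondrial pyruvate use. All 30 passed the filter and 0 were called by edgeR, as for all genes tested. In the fit, 23 were higher and 7 lower in Ag+Costim, with a median log2 fold change of 0.44, beside -0.32 over all genes tested and 0.24 over those at 10 CPM or more. DESeq2 called 4 (13.5% of all genes), of which 1 was higher (3.34% of all genes), and weighted limma voom called 26, of which 20 were higher (25.7% of all genes). In the fit with Ag libraries 2 and 5 only, edgeR called 1 of the 30, beside 10.8% of all genes, and the median was -0.020.

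By TPM, the mean of Pkm lay below those of Eno1 and Ldha in both groups. These genes, of the steps before and after it, were picked after their values were seen, and Eno2, Eno3 and Ldhb, of the same steps, had means of at most 17.8 TPM. Eno1, which encodes the enolase that supplies phosphoenolpyruvate, had a mean of 1508 ± 675 TPM in Ag and 2342 ± 201.2 TPM in Ag+Costim, against 868 ± 292 and 1343 ± 92.6 TPM for Pkm. Ldha, which encodes the lactate dehydrogenase subunit that uses pyruvate, had 2122 ± 1054 TPM in Ag and 3293 ± 465 TPM in Ag+Costim (SD, n = 5). Their log2 fold changes, 0.64 for Eno1 and 0.59 for Ldha, had standard errors of 0.42 and 0.45 and did not pass the edgeR test (adjusted p = 0.36 and 0.42).

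Of the 30 list members, 8 had an unadjusted p under 0.05, 5 of them higher in Ag+Costim, beside 18.6% of all genes. The lowest belonged to Slc2a3, the high-affinity glucose transporter GLUT3. It stood at 53.2, 79.9, 87.3, 66.0 and 82.4 CPM in the Ag libraries and at 105, 113, 101, 105 and 113 CPM in the Ag+Costim libraries. The groups did not overlap, which was the case in this direction for 1 of the 30 genes and for 4.48% of all genes. Its log2 fold change was 0.54 with a standard error of 0.15, and its edgeR adjusted p was 0.20, or 0.019 with a log2 fold change of 0.44 when Ag libraries 1, 3 and 4 were left out.

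Pfkl (liver-type phosphofructokinase, log2 fold change 0.74 ± 0.27, SE), Slc16a1 (the lactate transporter MCT1, 0.83 ± 0.33) and Hk1 (hexokinase, 0.39 ± 0.16) had positive values in the edgeR fit with adjusted p values of 0.24 to 0.26. Without Ag libraries 1, 3 and 4 these were 0.27, 0.28 and 0.31 (edgeR adjusted p = 0.20, 0.28 and 0.17). Eno2, the neuronal enolase, and Ldhb, the lactate dehydrogenase subunit favoured in oxidative tissues, had log2 fold changes of -1.82 ± 0.66 and -0.79 ± 0.30 (SE, edgeR adjusted p = 0.24 and 0.25), or -0.91 and -0.51 without those libraries (edgeR adjusted p = 0.37 and 0.26). Eno2 was near the limit of detection, with 0.318 to 2.23 CPM (Ag) and 0.197 to 0.699 CPM (Ag+Costim). Pgam2, the muscle-type phosphoglycerate mutase, was the 1 member without overlap that was lower in Ag+Costim (1.13% of all genes). It is named for that count, after its values were seen, and stood at 0.869 to 1.20 CPM (Ag) and 0.599 to 0.851 CPM (Ag+Costim).

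**Figure D5:**
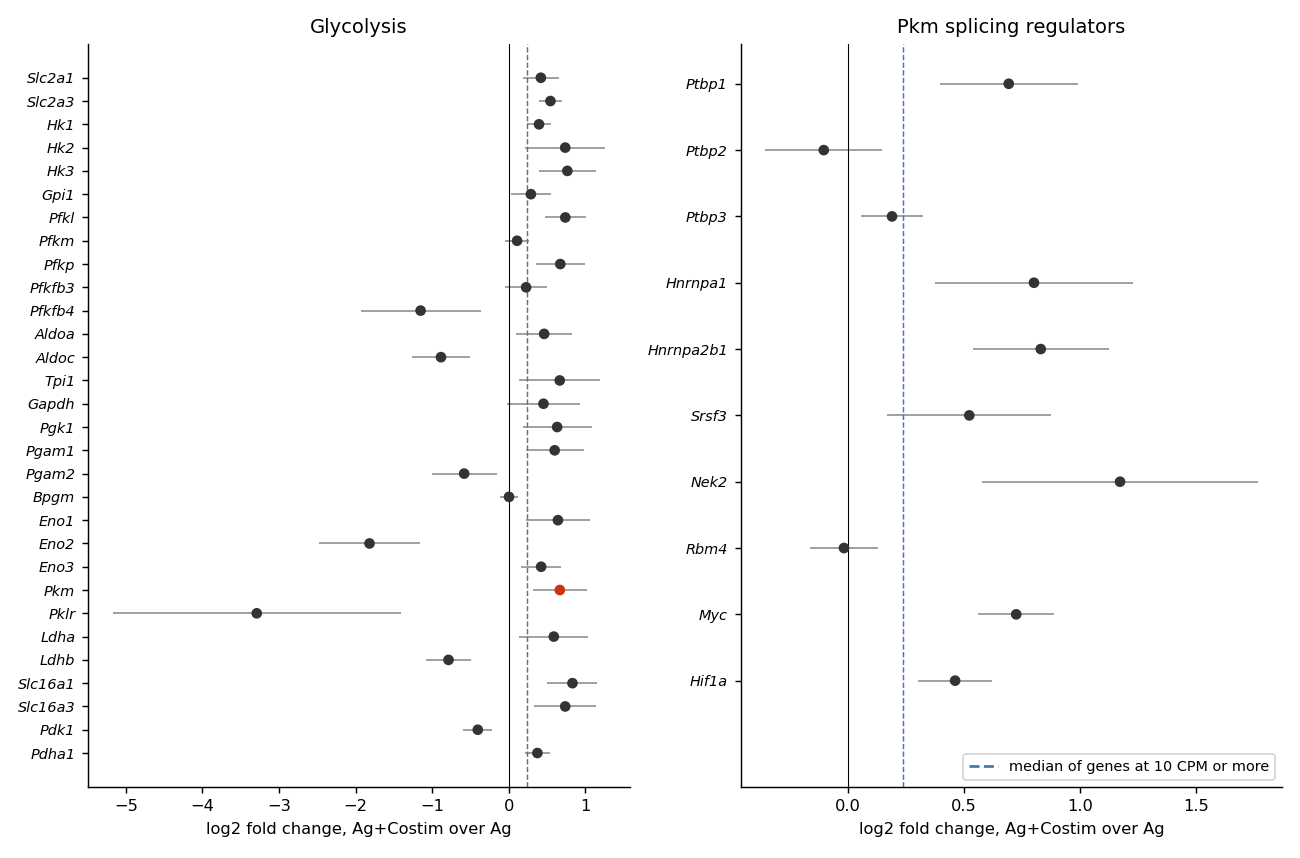
Log2 fold change, Ag+Costim over Ag, of each member of the glycolysis list (left, Pkm in red) and of the list of Pkm splicing regulators (right), with bars for the standard error from edgeR. The dashed line is the median of the genes at 10 CPM or more, 0.24. Of the 30 and 10 members, 23 and 8 lie above 0, and none passed an adjusted p of 0.05 in this fit.

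The regulators of the exon choice, with the transcription factors Myc and Hif1a, were described as a list of 10. All were tested and 0 were called by edgeR, as for all genes tested. In the fit, 8 were higher and 2 lower. Their median log2 fold change was 0.61, beside -0.32 over all genes tested and 0.24 over those at 10 CPM or more. Ptbp2, Rbm4 and Ptbp3 had log2 fold changes of -0.10, -0.018 and 0.19 (edgeR adjusted p = 0.80, 0.95 and 0.39). Unadjusted p values under 0.05 were found for 4, all higher, beside 18.6% of all genes in either direction. Of the 10, 4 did not overlap and were higher (4.48% of all genes). The members without overlap were Hnrnpa2b1, Nek2, Myc and Hif1a. DESeq2 called 2, both higher (3.34% of all genes), and weighted limma voom called 8, all higher (25.7% of all genes). Without Ag libraries 1, 3 and 4 the median was 0.21, and edgeR called 1 of 10 beside 10.8% of all genes.

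Among the factors that repress the M1 exon, Ptbp1 stood at 166, 491, 370, 217 and 511 CPM in the Ag libraries, and the Ag+Costim libraries ranged from 510 to 635 CPM. Hnrnpa1 stood at 87.1, 427, 217, 103 and 406 CPM in the Ag libraries, and the Ag+Costim libraries ranged from 379 to 548 CPM. Hnrnpa2b1 stood at 592, 1783, 1211, 709 and 1550 CPM in the Ag libraries, and the Ag+Costim libraries ranged from 1967 to 2293 CPM. Ag libraries 1 and 4, those with an M1 share over 7%, had the lowest level of each of these genes. They were also lowest for Pkm itself and for the cell cycle list. Ptbp2, another member, was lowest in Ag library 5, at 4.95 CPM. A link between the level of any regulator and the M1 share was not tested. Only Hnrnpa2b1 of these 3 separated the groups. The log2 fold changes were 0.69 ± 0.30 for Ptbp1, 0.80 ± 0.43 for Hnrnpa1 and 0.83 ± 0.29 for Hnrnpa2b1 (SE, edgeR adjusted p = 0.27, 0.30 and 0.24). Without Ag libraries 1, 3 and 4 they were 0.21, 0.084 and 0.35 (edgeR adjusted p = 0.20, 0.74 and 0.059).

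Srsf3, which favours the M2 exon, stood at 280, 896, 542, 306 and 1035 CPM in the Ag libraries, and the Ag+Costim libraries ranged from 793 to 1046 CPM, with a log2 fold change of 0.52 ± 0.35 (SE, edgeR adjusted p = 0.37). Ag libraries 1 and 4 were again lowest, and without Ag libraries 1, 3 and 4 the log2 fold change turned to -0.10 (adjusted p = 0.57). Nek2, a mitotic kinase known to act with hnRNPA1 and hnRNPA2B1 on this exon choice, stood at 19.2, 178, 150, 21.4 and 185 CPM in the Ag libraries, and the Ag+Costim libraries ranged from 211 to 300 CPM. It did not overlap, but its log2 fold change of 1.17 ± 0.59 did not pass the edgeR test (SE, adjusted p = 0.29), and it was 0.49 without Ag libraries 1, 3 and 4 (adjusted p = 0.058). Its lowest values were those of Ag libraries 1 and 4, which were also lowest for the cell cycle list.

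Myc, a transcription factor upstream of several of these proteins, stood at 58.1, 70.9, 49.6, 46.6 and 80.2 CPM in the Ag libraries and at 96.5, 98.3, 99.9, 101 and 109 CPM in the Ag+Costim libraries. Every Ag+Costim library was above every Ag library, Ag libraries 2 and 5 included. The log2 fold change was 0.72 ± 0.16 (SE, edgeR adjusted p = 0.15), and it was 0.45 without Ag libraries 1, 3 and 4, the 1 call made on the list under that choice (adjusted p = 0.018). DESeq2 gave an adjusted p of 0.00081 for Myc and 0.041 for Hnrnpa2b1, the 2 members it called. Hif1a, the oxygen-regulated factor that raises transcription of Pkm and of other glycolysis genes, stood at 170, 236, 188, 249 and 178 CPM (Ag) and 251 to 336 CPM (Ag+Costim). Its log2 fold change was 0.46 ± 0.16 (SE, edgeR adjusted p = 0.24), and 0.47 without Ag libraries 1, 3 and 4 (edgeR adjusted p = 0.081). With total counts in place of TMM factors it was 0.17 (edgeR adjusted p = 0.49).

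In the PSI table, the glycolysis genes held 284 core exon events, of which 12 differed by more than 5 points between the groups, beside 5.5% of all core exon events. The regulators held 83, of which 2 did. These were an exon of Hnrnpa2b1 (chr6:51461920-51462055), whose PSI was 0.28 (Ag) and 0.18 (Ag+Costim), and an exon of Rbm4 (chr19:4787361-4788042), whose PSI was 0.50 (Ag) and 0.57 (Ag+Costim). Both are named for that count, after their values were seen. Pkm itself contributed 10 of the 284 events and 0 of the 12.

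Many genes followed the same order of libraries as Pkm. Over the 10 libraries, 2709 of 8625 genes (31.4%) had a Pearson r above 0.9 with Pkm in log2 CPM. The 5 most alike were Uba2, Ccz1, Psat1, Me2 and Strap, which encode a SUMO-activating enzyme subunit, a vesicle trafficking protein, a serine synthesis enzyme, a mitochondrial malic enzyme and an RNA-binding complex component. Their r was between 0.997 and 0.998 and their Spearman rho between 0.92 and 0.99. Without Ag libraries 1 and 4, the farthest from the median of Pkm, r was between 0.982 and 0.993. These libraries share the differences in depth and composition described above, so the values are a description of these libraries. Of the glycolysis list, Eno1 was nearest with an r of 0.995 (30th of the 8625 genes).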

How the data were processed

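Reads were 2x150 bp from SMART-Seq v4 libraries. Per the labels, the authors aligned them to mm10 with HISAT2 2.1.0, sorted with SAMtools 1.9 and obtained counts with StringTie 2.1.0. The deposited gene and transcript values are estimated counts, whole numbers derived from coverage and not normalized. The deposited PSI values are fractions from Whippet, 1 per group and event. Columns with the authors' own comparison (PSI difference, probability, entropy) were not used. Naive libraries were not analysed here.

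Identifiers matched GENCODE M21. Another 26345 rows without such an identifier (0.0458% to 0.308% of counts) were left out. Transcripts were classed by the exons found in only 1 of the 2 full-length coding transcripts. In R 4.3.3, edgeR 4.0.16 (filterByExpr, TMM, robust quasi-likelihood) was the main test, with DESeq2 1.42.0 and limma 3.58.1 as alternatives. Log2 CPM used a pseudocount of 0.5. SEs are the fold change over the root of the F statistic. TPM used GENCODE lengths and gene copies came from blastn 2.17.0. Scripts were tested on simulated data. The gene, lists and named genes (list members by lowest p, the 5 genes most alike) were chosen with earlier results of these data known. TPM tests and leaving out Ag libraries with a count on over 40000 genes were added after seeing the data. A marker gene of the lists is not reported here and is left out of the sums.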

Additional observations from a re-analysis of the deposited data

Results flagged for a closer look

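Of 36 sets of 5 libraries checked for a single library far from the others (Pkm, its isoforms and 13 named genes in each group), 1 was flagged, and chance flags about 1 in 20. Eno2 in Ag+Costim library 2 stood at 0.699 CPM, while the other 4 Ag+Costim libraries lay between 0.197 and 0.293 CPM. All of these values are close to the limit of detection.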

How the results depend on the processing

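The estimated counts are not reads, and the spread among Ag libraries limits what 5 against 5 can show. Pkm kept its direction and stayed uncalled under other scalings, DESeq2, no filter and the omission of each library, with a log2 fold change between 0.48 and 0.97 when 1 library was left out. It was called with weighted limma voom at 1.53. Genes called numbered 0 in the main fit, 2912 with DESeq2, 12632 with weighted voom and 2752 without Ag libraries 1, 3 and 4. Glycolysis members called numbered 4, 26 and 1 under the same choices, and regulators 2, 8 and 1. The glycolysis median was 0.86 with voom, 0.77 with no filter beyond 1 count and -0.020 without the 3 libraries. The regulator median was 1.17 with voom and 0.21 without them. These are to be read beside the median of the genes at 10 CPM or more, which moved as well. It was 0.24 in the main fit, 0.44 with voom and 0.56 with no filter beyond 1 count.

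Without Ag libraries 1, 3 and 4, where fewer samples enter, the fold change reversed to -0.083 for M1, -0.045 for M2 and -0.10 for Srsf3, and the log2 ratio of mean TPM was 0.24 for the gene, 0.24 for M2 and 0.21 for M1. With only 21 assignments the p values of these ratios were no longer under 0.05, although the groups still did not overlap for the gene and M2. Leaving out 1 library kept it at 0.49 to 0.76, 0.51 to 0.78 and 0.33 to 0.49, all past the threshold. The M1 share difference ranged from -1.51 to -0.72 points. Usage calls numbered 143 with limma diffSplice, 366 without the 3 libraries and 33 to 94 without 1 library, against 31. Pkm was in none of them, with a Simes adjusted p of 0.70 or more in each of these fits. The cause was not tested.

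The groups share replicate numbers, but same-numbered libraries did not deviate together (correlations of 0.21, 0.01, -0.18, -0.41 and 0.05 over genes, and 0 of 5 matched best with their own number). With the replicate block, edgeR called 0 genes, Pkm had a log2 fold change of 0.86 (adjusted p = 0.50), M1 0.59 and M2 0.89, usage calls numbered 30, and the paired M1 share difference was -1.17 points (exact sign flips, p = 0.19). A PSI limit of 0.1 in place of 0.05 changed nothing for Pkm, whose M1 and M2 exons could reach neither limit in the direction seen.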
